A study of Mus musculus with 12 samples.

Results

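The 10 genes *Apoe*, *Lpl*, *Cst7*, *Spp1*, *Itgax*, *Axl*, *Clec7a*, *Cd9*, *Lgals3* and *Gpnmb* are known to rise in microglia that gather around amyloid plaques or respond to injury, a state called disease-associated microglia. They were taken by name, with earlier results of these data known, as the rows of these symbols in the count matrix, and all 10 were found among its 47643 genes. Of these genes 18571 had at least 1 count, and 12270 had the 10 counts over all samples that were required for a test. All 10 members passed this minimum, which does not depend on the group.

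Bulk RNA sequencing was performed on viable brain cells of 5 male p16-3MR mice on a C57BL/6 background, aged 113, 115, 116, 116 and 116 weeks (mice 1 to 5). The p16-3MR transgene places a red fluorescent protein (RFP), a luciferase and a viral thymidine kinase under the p16 promoter, and every mouse carried it. From each mouse, nucleated viable cells were sorted by fluorescence into 1 RFPLow sample (RFPneg in the labels) and 1 RFPHigh sample (RFPpos in the labels), which pairs the 2 populations within a mouse. The 2 single-cell samples of the series were not used here. The gate selected cells by the activity of the p16 promoter construct and not by cell type, and there were no young or non-transgenic mice in the bulk samples. The comparison asks which genes differ between cells with high and low activity of that promoter in old brain.

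The RFPLow samples held 177287 to 415834 counts on genes (median 248471) and the RFPHigh samples 222560 to 289713 (median 242798). Reads on no gene were 32.1% to 37.2% in RFPLow and 38.4% to 48.6% in RFPHigh, higher in RFPHigh in 5 of 5 mice without overlap. This difference in the libraries goes with the comparison, and its part in the results was not tested. The libraries hold 1 tag near the 3′ end of a transcript, so levels of different genes were compared without a correction for length. Levels are CPM (counts divided by the library's counts on genes and multiplied by 1e6), with libraries scaled by TMM (trimmed mean of M values). A count of 0 allows up to 3 counts, between 7.17 and 16.6 CPM in a sample, and this limit covers counting error only.

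In disease-associated microglia, homeostatic genes such as the purinergic receptor *P2ry12* are known to fall while genes of lipid handling, phagocytosis, lysosomes and adhesion rise, in a stepwise course in which the later step depends on the lipid receptor TREM2. Among the members, *Apoe* and *Lpl* serve lipid transport and hydrolysis, *Axl*, *Clec7a* and *Itgax* are surface receptors of uptake and adhesion, and *Cd9* and *Gpnmb* are other membrane proteins. *Spp1* and *Lgals3* encode secreted ligands, and *Cst7* encodes an inhibitor of lysosomal proteases. None of these genes is specific to microglia: astrocytes make much of the *Apoe* of the brain, oligodendrocytes are rich in *Cd9*, and peripheral macrophages and dendritic cells carry *Itgax*, *Lgals3* and *Clec7a*.

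The RFPHigh sample of mouse 1 had the lowest shares of astrocyte and glial restricted progenitor markers of the 10 samples. It was also the lowest for endothelial, oligodendrocyte, oligodendrocyte progenitor, mural, fibroblast and dendritic cell markers. For CNS-associated macrophage, monocyte, neutrophil, B cell, neuron, and choroid plexus and ependymal markers the sample was not the lowest. A list of 10 astrocyte markers took 0.0993% of its counts (95% Wilson interval 0.0870% to 0.113%), against 0.362% to 0.631% in the other RFPHigh samples and 0.407% to 0.623% in the RFPLow samples. These intervals cover counting error only, and not the spread between samples. The same sample had 2 counts of *Aqp4*, 2 of *Gja1* and 0 of *Ntsr2*, while the other RFPHigh samples had 62 to 99, 27 to 80 and 8 to 23 counts of these markers. A list of 3 markers of glial restricted progenitors took 0.0103% of its counts (95% Wilson interval 0.00689% to 0.0155%), against 0.118% to 0.168% in the other RFPHigh samples, and its share of microglia markers, 1.80%, was the highest of the 10 samples. The sample was not among those whose gap to the next sample was large against the range of their group, which are given at the end. Several results in which mouse 1 weighs, among them those of the members as a group, are therefore given with and without that mouse.

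Between RFPHigh and RFPLow, 524 of the 12270 genes tested were called higher (4.27%) and 919 lower (7.49%) by edgeR's quasi-likelihood test with the mouse as a block, at a Benjamini-Hochberg adjusted p under 0.05. This test gave each gene the spread of genes at its level and not its own spread between mice. The standard errors, confidence intervals and p-values given below from this test therefore do not measure a gene's own spread. Of the 10 members, 1 was called higher, *Cd9*, and 0 were called lower. At an unadjusted p under 0.05, 1 member was higher and 0 lower, beside 2686 of the 12270 genes in either direction. DESeq2 called 0 members in either direction, beside 280 genes higher and 582 lower, while limma with voom weights called *Cd9* as well. The log2 fold change was above 0 for 8 of the 10 members, with a median of 0.20, beside a median of −0.15 and 43.0% of genes above 0 over all genes tested. Of these 8, *Apoe*, *Axl* and *Cst7* had 0.04, 0.00 and 0.00, and with DESeq2, median-of-ratios factors or the library size alone 5 of the 10 members were above 0. Without mouse 3 also 5 were above 0, with a median of −0.00993, and relative to a list of homeostatic microglia genes described below 1 was. Without mouse 1 or mouse 2 the number above 0 was 8, with medians of 0.50 and 0.37. Without mouse 4 or mouse 5 it was 6, with medians of 0.19 and 0.20. *Cd9* was also the 1 member whose levels did not overlap between the groups, which held, in the higher direction, for 3.65% of the genes tested. A single gene of 10 is no result about the members as a group. In bulk samples, fewer cells of a type and less RNA per cell cannot be told apart, and this applies to all values below.

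The members differed widely in level. Over the 10 samples *Apoe* had a mean of 1459.9 CPM and *Cd9* 762 CPM, and these genes held 55.8% and 28.6% of the 6780 counts on the members. *Lpl* (94.8 CPM), *Clec7a* (86.2), *Spp1* (81.4) and *Axl* (65.6) followed, with levels that overlapped between these genes in each group. *Gpnmb* (32.2), *Lgals3* (24.9), *Cst7* (20.1) and *Itgax* (16.7) were lowest, with 41 to 78 counts each over all samples. For these 4 genes a single sample often held fewer than 10 counts, and their fold changes are correspondingly uncertain.

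**Figure D1:**
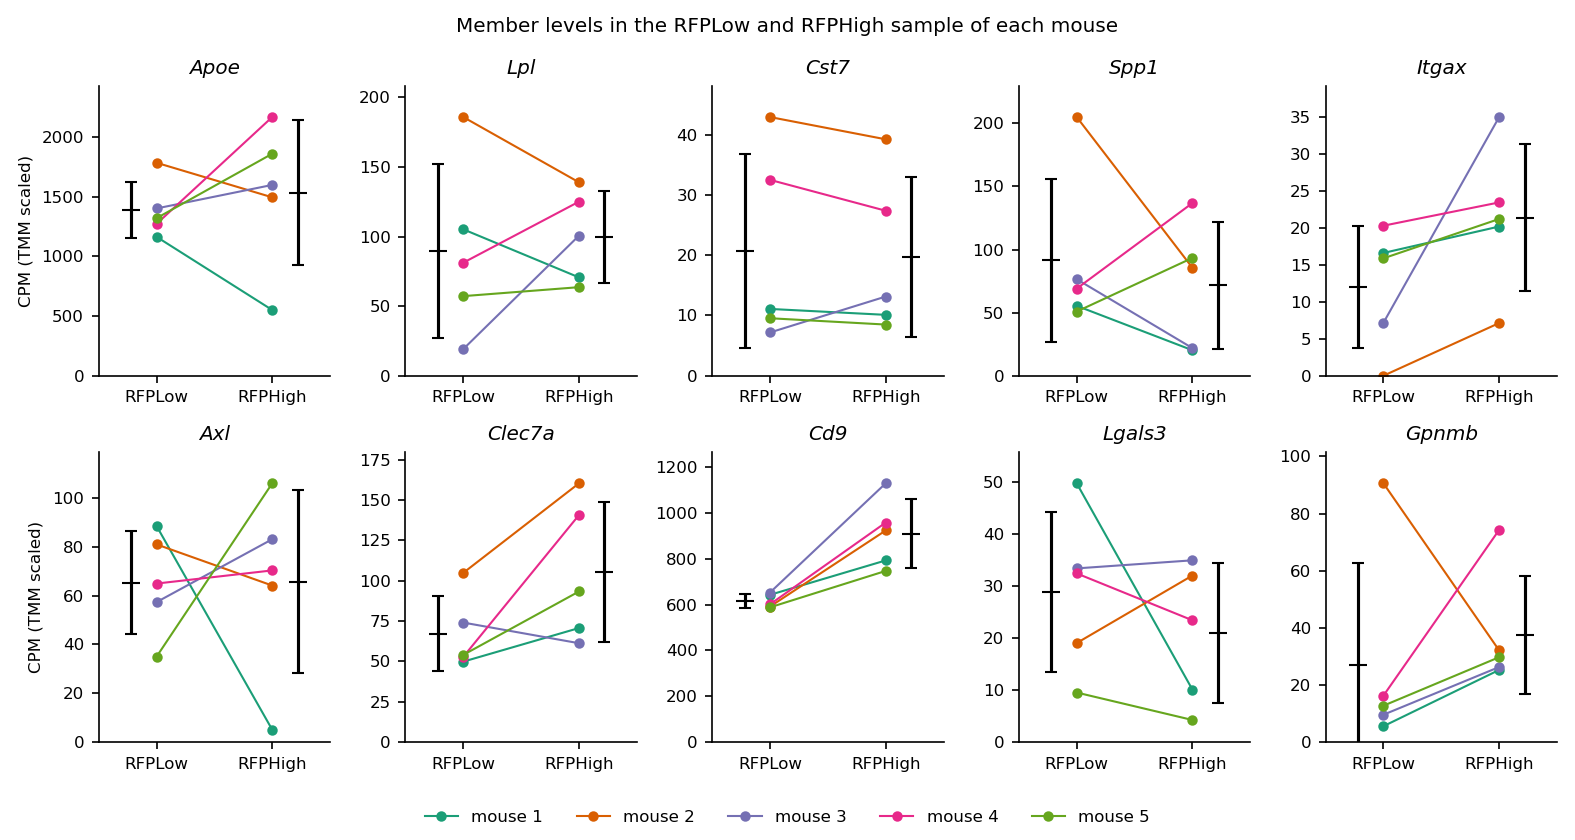
Levels of the 10 members in CPM (TMM scaled, linear axes from 0) in the RFPLow and RFPHigh sample of each mouse, with a line joining the samples of 1 mouse. Black bars give the mean and SD of 5 samples, ending at 0 for *Gpnmb* in RFPLow. *Cd9* was higher in RFPHigh in 5 of 5 mice without overlap (lower in 5 of 5 per homeostatic count), and the lines of most other members crossed.

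RefSeq promoter windows on GRCm38.p6, from 250 bases before to 50 bases after a start site, were matched for 9 of the 10 members (not for *Lpl*), 13 windows in all. They were searched on both strands for TGANTCA, which covers the AP-1 sites TGACTCA and TGAGTCA and also TGATTCA and TGAATCA, for TCACGTG and TCATGTG, bound by the MITF and TFE family, and for GAGGAAGT, bound by PU.1, the lineage factor of myeloid cells. No 2 of these motifs overlapped in a window of the members. TGANTCA was found in the windows of 3 members, *Cst7* (TGATTCA, 6 bases before the start site), *Itgax* (TGAGTCA, 56 before) and *Gpnmb* (TGACTCA, at base 9), and it lies in 7.81% of all 32851 windows. GAGGAAGT was found for *Spp1*, 113 bases before the start site, and lies in 3.20% of all windows. Neither MITF and TFE motif was found for a member (3.77% of all windows each), which says only that these letters are absent there. The windows of *Spp1* and *Gpnmb* are printed because each holds a match, shown in capitals, and those of *Apoe* and *Cd9*, without a match, because these members were the most abundant and *Cd9* was the member called.
*Cd9*, chr6:125494711-125495010, minus strand: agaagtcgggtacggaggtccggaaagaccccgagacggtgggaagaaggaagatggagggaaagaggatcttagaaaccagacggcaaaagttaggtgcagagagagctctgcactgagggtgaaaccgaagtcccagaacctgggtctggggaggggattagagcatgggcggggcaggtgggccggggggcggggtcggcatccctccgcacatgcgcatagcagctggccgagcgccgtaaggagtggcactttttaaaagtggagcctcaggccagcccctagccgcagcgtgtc
*Apoe*, chr7:19699139-19699438, minus strand: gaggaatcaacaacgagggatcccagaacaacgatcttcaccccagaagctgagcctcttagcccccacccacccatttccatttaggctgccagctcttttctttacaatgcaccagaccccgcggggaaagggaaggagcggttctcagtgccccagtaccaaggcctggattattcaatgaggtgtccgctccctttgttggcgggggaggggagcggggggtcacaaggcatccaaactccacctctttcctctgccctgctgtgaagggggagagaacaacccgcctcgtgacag
*Spp1*, chr5:104434861-104435160, plus strand: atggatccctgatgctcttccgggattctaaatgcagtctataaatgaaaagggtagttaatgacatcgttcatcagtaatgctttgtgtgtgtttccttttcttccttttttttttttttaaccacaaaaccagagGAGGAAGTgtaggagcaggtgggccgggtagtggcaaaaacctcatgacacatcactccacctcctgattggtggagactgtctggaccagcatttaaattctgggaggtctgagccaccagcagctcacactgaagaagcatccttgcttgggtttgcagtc
*Gpnmb*, chr6:49036268-49036567, plus strand: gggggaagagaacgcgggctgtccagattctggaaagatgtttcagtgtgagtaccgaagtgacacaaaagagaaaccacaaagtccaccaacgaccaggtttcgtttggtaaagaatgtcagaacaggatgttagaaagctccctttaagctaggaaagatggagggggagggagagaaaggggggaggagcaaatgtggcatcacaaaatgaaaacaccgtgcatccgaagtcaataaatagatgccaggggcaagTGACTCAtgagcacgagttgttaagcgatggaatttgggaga

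*Cd9* (ENSMUSG00000030342; GRCm38 chromosome 6, 125460266 to 125494791, minus strand) encodes a tetraspanin, a membrane organiser that binds integrins. Its level in RFPLow was 642, 591, 652, 601 and 588 CPM in mice 1 to 5, and in RFPHigh it was 792, 923, 1129, 958 and 747 CPM. Every RFPHigh sample was above every RFPLow sample, and the RFPLow samples lay close together. The means were 615 ± 30.2 and 909.8 ± 151 CPM (SD, n = 5 each), which gave a log2 difference of 0.55 (standard error 0.19, 95% confidence interval 0.17 to 0.93, edgeR adjusted p = 0.0398). With TMM, median-of-ratios factors or the library size alone the log2 fold change was 0.55, 0.50 and 0.48, but the call was near the threshold and was lost with the latter scalings (adjusted p 0.0634 and 0.115). It was also lost with the likelihood ratio test (0.0696), DESeq2 (0.0787), all genes with a count (0.0604) and filterByExpr (0.0542). Over the alternatives tried, the adjusted p ran from 0.00202 with limma and voom to 0.249 with counts thinned to the smallest library, and without mouse 2, 3 or 4 it was 0.103, 0.187 and 0.0815 (log2 fold changes 0.57, 0.51 and 0.54). Oligodendrocyte markers moved in the other direction, from 1.02% ± 0.529 of counts in RFPLow to 0.183% ± 0.1004 in RFPHigh (SD, n = 5 each), lower in 5 of 5 mice. The part of oligodendrocytes in the *Cd9* level was not tested. *Cd9* overlaps the antisense gene models *Gm28809*, with 0 counts, and *Gm26728*, with 4. Of the other members *Spp1* alone overlaps a gene model, *Gm42793* on the same strand, with 0 counts.

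*Apoe* (ENSMUSG00000002985; GRCm38 chromosome 7, 19696109 to 19699188, minus strand) encodes the main lipid carrier of the brain. It had 1163, 1783, 1400.2, 1271 and 1319 CPM in RFPLow, mice 1 to 5, and 550.2, 1493, 1597, 2165 and 1858 CPM in RFPHigh. The RFPHigh sample of mouse 1 was the lowest of all 10 and that of mouse 4 the highest, and the groups overlapped, with higher levels in RFPHigh in 3 of 5 mice. The means were 1387 ± 237 and 1533 ± 608 CPM (SD, n = 5 each), and the log2 fold change was 0.04 (standard error 0.19, 95% confidence interval −0.33 to 0.42, edgeR adjusted p = 0.941). Without mouse 1 it was 0.30 (95% confidence interval −0.10 to 0.69, adjusted p = 0.466), and with each mouse left out in turn it ran from −0.13 to 0.30. Over all alternatives the adjusted p of *Apoe* ran from 8.51e-08, with library sizes from a pan-myeloid list, to 0.994. With that list *Apoe* was lower in RFPHigh, at −1.16. The astrocyte share of counts was also lowest in the RFPHigh sample of mouse 1, and its part in the *Apoe* level was not tested. With TMM scaling a 2-fold difference in *Apoe* lay outside the interval of all 5 mice in either direction. That interval rests on the spread of genes at its level and not on that of *Apoe* between mice. The within-mouse log2 CPM differences of *Apoe* ran from −1.07 to 0.77, so a 2-fold difference is not excluded.

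*Lpl* (ENSMUSG00000015568; GRCm38 chromosome 8, 68880491 to 68907448, plus strand) encodes lipoprotein lipase. It had between 8 and 39 counts in each sample, with 89.7 ± 62.5 CPM in RFPLow and 99.8 ± 32.9 CPM in RFPHigh (SD, n = 5 each). The log2 fold change of 0.35 (95% confidence interval −0.26 to 0.96, edgeR adjusted p = 0.607) came with higher levels in RFPHigh in 3 of 5 mice and turned to −0.04 without mouse 3 (adjusted p = 0.980, the highest of its alternatives). Without mouse 1 or mouse 2 it was 0.54 and 0.64. The lowest adjusted p, 0.0225, came with library sizes from a pan-myeloid list, where *Lpl* was lower in RFPHigh, at −0.86. Among genes that act with them on lipoproteins (receptors, transporters, other apolipoproteins and lipase factors), 13 were listed and 10 tested, with 3 higher and 1 lower by TMM scaling and 4 lower relative to the homeostatic list described below. The endocytic receptor *Lrp1* had a log2 fold change of 1.11 (edgeR adjusted p = 4.83e-06), and the cholesterol exporters *Abca1* and *Abcg1* had 0.89 (0.00190) and 0.95 (0.0187). The receptor *Vldlr* was lower, with 38 counts in the RFPLow and 4 in the RFPHigh samples (adjusted p = 0.00623).

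*Spp1* (ENSMUSG00000029304; GRCm38 chromosome 5, 104435118 to 104441050, plus strand) encodes osteopontin, a secreted integrin and CD44 ligand. Its level was 55.4, 205, 76.5, 69.02 and 50.8 CPM in RFPLow, mice 1 to 5, and 20.2, 85.5, 21.9, 137 and 93.3 CPM in RFPHigh. The RFPLow sample of mouse 2 was far above the other RFPLow samples, RFPHigh was lower in mice 1, 2 and 3 and higher in mice 4 and 5, and the groups overlapped. The means were 91.3 ± 64.3 and 71.5 ± 50.1 CPM (SD, n = 5 each), and the log2 fold change −0.37 (standard error 0.34, 95% confidence interval −1.05 to 0.29, edgeR adjusted p = 0.614). It was −0.23, −0.05, −0.08, −0.78 and −0.70 without mouse 1, 2, 3, 4 or 5 (adjusted p 0.2475 to 0.979), within adjusted p-values from 4.48e-05, with library sizes from a pan-myeloid list, to 0.979 over all alternatives.

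*Gpnmb* (ENSMUSG00000029816; GRCm38 chromosome 6, 49036546 to 49070929, plus strand) encodes a lysosomal and cell surface glycoprotein. It had 1, 19, 4, 4 and 4 counts in RFPLow, mice 1 to 5, and 5, 9, 6, 19 and 7 counts in RFPHigh. The RFPLow sample of mouse 2 and the RFPHigh sample of mouse 4 were high, and RFPHigh was higher in CPM in 4 of 5 mice, all but mouse 2. The log2 fold change was 0.82 (95% confidence interval −0.26 to 1.97, edgeR adjusted p = 0.425), and 1.73 without mouse 2 (adjusted p = 0.112, the lowest of its alternatives, which reached 0.837). Without mouse 4 it was 0.47. *Itgax* (ENSMUSG00000030789; GRCm38 chromosome 7, 128129547 to 128150657, plus strand), the integrin chain CD11c, had 3, 0, 3, 5 and 5 counts in RFPLow and 4, 2, 8, 6 and 5 in RFPHigh. Its CPM was higher in RFPHigh in 5 of 5 mice, with overlapping groups and a log2 fold change of 0.93 (95% confidence interval −0.58 to 2.55, edgeR adjusted p = 0.556), and 0.57 without mouse 3. At this depth neither a 4-fold rise nor the absence of a change in *Itgax* lay outside the interval.

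The adhesion partners of *Spp1*, *Itgax*, *Cd9* and *Gpnmb* numbered 12, all tested, with 5 higher and 1 lower by TMM scaling and 3 lower relative to the homeostatic list. *Itgb2*, the chain that pairs with *Itgax*, had a log2 fold change of 1.05 (edgeR adjusted p = 3.30e-05), and *Cd81*, a tetraspanin related to *Cd9*, had 0.61 (0.0205). The osteopontin receptor chains *Itgb5* and *Itgb3* were higher, at 1.30 (1.30e-07) and 2.14 (0.0227), *Itgb3* on 11 and 43 counts. *Itgb1* had 0.06 (0.934), and *Itga4*, which pairs with it on leukocytes, was lower at −1.76 (0.0413).

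*Axl* (ENSMUSG00000002602; GRCm38 chromosome 7, 25757273 to 25788705, minus strand) encodes a receptor tyrosine kinase for the uptake of dying cells. Its level was 88.6, 81.03, 57.3, 65.0 and 35.0 CPM in RFPLow, mice 1 to 5, and 5.05, 64.2, 83.1, 70.4 and 106 CPM in RFPHigh. The RFPHigh sample of mouse 1, with 1 count, was the lowest and that of mouse 5 the highest, and the groups overlapped. The means were 65.4 ± 21.1 and 65.8 ± 37.5 CPM (SD, n = 5 each), with a log2 fold change of 0.00 (95% confidence interval −0.72 to 0.72, edgeR adjusted p = 0.999), and 0.46 without mouse 1 (95% confidence interval −0.28 to 1.22, adjusted p = 0.579). The within-mouse log2 CPM differences of *Axl* ran from −2.91 to 1.41. Both intervals use the spread of genes at its level and not this spread, so they exclude no size of change. Astrocytes are also known to express *Axl*, and the astrocyte share was lowest in the same sample. Its part in the *Axl* level was not tested.

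*Clec7a* (ENSMUSG00000079293; GRCm38 chromosome 6, 129461591 to 129472779, minus strand), listed in the annotation as a polymorphic pseudogene, encodes Dectin-1, a receptor of fungal glucans that signals through SYK. It had 49.8, 105, 74.1, 52.8 and 54.01 CPM in RFPLow, mice 1 to 5, and 70.7, 160.4, 61.3, 141 and 93.3 CPM in RFPHigh. RFPHigh was higher in every mouse but mouse 3, and the groups overlapped. The means were 67.1 ± 23.2 and 105 ± 43.5 CPM (SD, n = 5 each), and the log2 fold change 0.61 (standard error 0.32, 95% confidence interval −0.01 to 1.25, edgeR adjusted p = 0.244), which did not pass the threshold.

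*Lgals3* (ENSMUSG00000050335; GRCm38 chromosome 14, 47367751 to 47386160, plus strand) encodes galectin-3, a glycan-binding protein recruited to damaged lysosomes. It had 38 counts in the RFPLow and 26 in the RFPHigh samples, between 1 and 14 in each. The log2 fold change was −0.44 (95% confidence interval −1.67 to 0.75, edgeR adjusted p = 0.774). It was −0.05, −0.73, −0.62, −0.43 and −0.36 without mouse 1, 2, 3, 4 or 5. *Cst7* (ENSMUSG00000068129; GRCm38 chromosome 2, 150570415 to 150578944, plus strand), encoding cystatin F, had 25 counts in each population. Its level was 11.1, 42.9, 7.17, 32.5 and 9.53 CPM in RFPLow, mice 1 to 5, and 10.1, 39.2, 13.1, 27.4 and 8.48 CPM in RFPHigh, higher in RFPHigh in mouse 3 alone. Mice 2 and 4 were high in both populations, and the log2 fold change was 0.00 (95% confidence interval −1.38 to 1.38, edgeR adjusted p = 0.999).

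Partners and signalling genes of *Axl*, *Clec7a*, *Cst7* and *Lgals3* numbered 12, all tested, with 4 higher and 1 lower by TMM scaling and 2 lower relative to the homeostatic list. *Pros1*, a ligand in the receptor family of AXL, and the family's receptor *Mertk* had log2 fold changes of 1.09 (edgeR adjusted p = 1.72e-04) and 1.05 (1.07e-05). The receptor *Tyro3* of the same family was lower, with 37 counts in RFPLow and 2 in RFPHigh (0.00277). *Ctsc* and *Lgmn*, lysosomal proteases linked to cystatin F, had 0.81 (0.00178) and 0.78 (6.17e-04).

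Microglia genes were higher in RFPHigh as a whole. Of 20 homeostatic genes, which are known to fall in disease-associated microglia, 19 were higher, with a median log2 fold change of 1.16 by TMM scaling and 0.16 relative to the same list. Of 15 pan-myeloid genes 13 were higher, with medians of 1.11 and 0.11. Among the homeostatic genes *Cx3cr1*, *Csf1r* and *Serinc3* had log2 fold changes of 0.98, 1.32 and 0.69, and *Fcrls* had the largest, 1.72. Among the pan-myeloid genes *Ctss* had 1.31, *C1qa* 1.30, *C1qc* 0.94, *Laptm5* 1.76 and *Cd53* 0.71. The median of the members, 0.20, lay below these medians, although *Itgax* and *Gpnmb* lay above *Serinc3* and *Cd53*, and the difference between the lists was not tested. Each member was instead expressed relative to the homeostatic list.

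**Figure D2:**
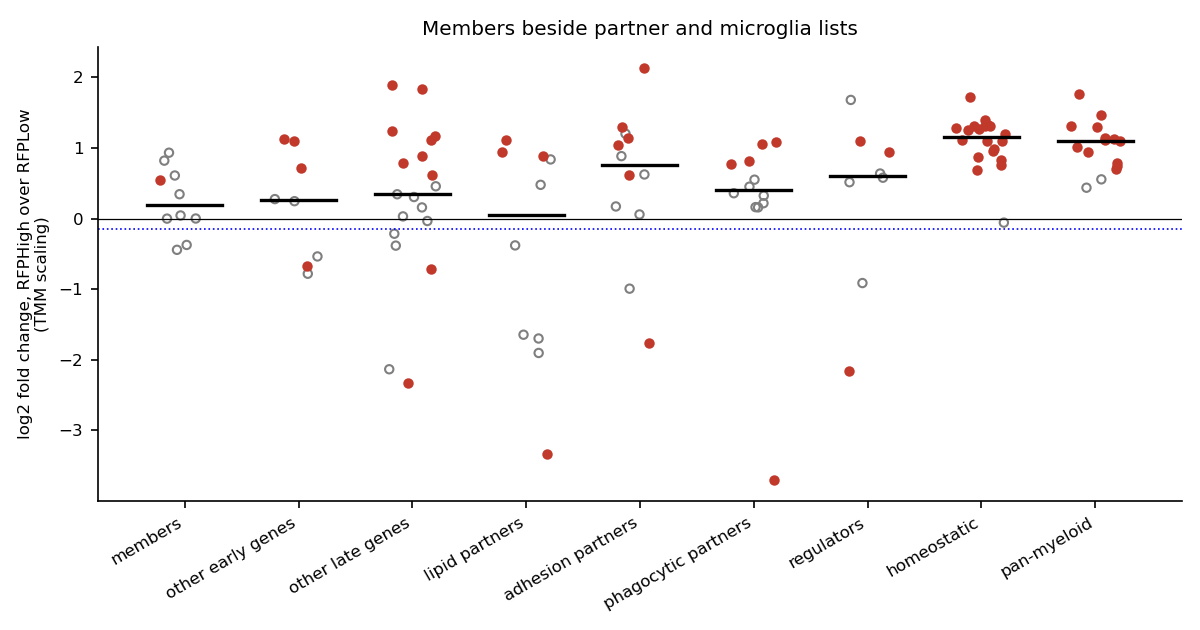
Log2 fold changes of RFPHigh over RFPLow (TMM scaling) for each tested gene of the members, of their partners and regulators, of other disease-associated genes and of 2 microglia lists, with genes called at an adjusted p under 0.05 in red, other genes as open circles and the list median as a black line. The dotted line is the median of all genes tested, −0.15. The medians were 0.20 for the members and 1.16 for the homeostatic genes, and −0.81 and 0.16 relative to the homeostatic list.

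For this comparison the library size was replaced by the summed counts of the 20 homeostatic genes, 2836 to 6343 counts in the RFPLow and 6823 to 8759 in the RFPHigh samples. Relative to that list 24 genes were called higher (0.196%) and 4712 lower (38.4%), and over all genes the median moved from −0.15 to −1.12. With each mouse left out 14 to 31 genes were called higher and 3427 to 4823 lower. With edgeR's likelihood ratio test these numbers were 40 and 5475. Of the 10 members, 0 were above the homeostatic list and 4 below it, *Apoe*, *Spp1*, *Axl* and *Lgals3*, a share close to the 38.4% of all genes. At an unadjusted p under 0.05, 0 members were above and 6 below, beside 47.6% of all genes below, and with edgeR's likelihood ratio test 0 were above and 4 below, beside 44.6%. Without mouse 1, 2 or 4 the number below was 2, beside 33.6%, 31.2% and 30.4% of all genes, and without the mouse block it was 2, beside 38.6%. It was 4 without mouse 3 and 5 without mouse 5, beside 30.1% and 41.7%. The median of the members was −0.81, and −0.50, −0.63, −1.02, −0.79 and −0.91 without mouse 1, 2, 3, 4 or 5. Nothing particular to the members is read from these counts, since genes in general were lower relative to the homeostatic genes.

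*Apoe* had 54.1, 132, 92.4, 88.0 and 69.1 counts per 1000 homeostatic counts in RFPLow, mice 1 to 5, and 12.999, 47.8, 49.7, 67.9 and 64.2 in RFPHigh. RFPHigh was lower in 5 of 5 mice, least in mouse 5, although the groups overlapped. The log2 fold change was −0.96 (standard error 0.19, 95% confidence interval −1.34 to −0.58, edgeR adjusted p = 1.07e-05), and −0.71 without mouse 1 (95% confidence interval −1.12 to −0.29, adjusted p = 0.00453). Over all genes the median relative to this list was −1.12. The standard error, intervals and p-values use the spread of genes at its level. They do not measure the spread of *Apoe* between mice, which the values above show to be wide. *Apoe* was below the list with the likelihood ratio test, without the mouse block (−0.84, the highest adjusted p, 0.0141) and without each mouse in turn (lowest adjusted p 1.55e-07). Relative to the pan-myeloid list instead, its adjusted p was 8.51e-08.

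*Spp1* had 2.58, 15.2, 5.04, 4.78 and 2.66 counts per 1000 homeostatic counts in RFPLow and 0.477, 2.74, 0.680, 4.29 and 3.22 in RFPHigh, lower in every mouse but mouse 5, with overlapping groups. Its log2 fold change was −1.38 (standard error 0.35, 95% confidence interval −2.09 to −0.71, edgeR adjusted p = 4.85e-04) and −1.24 without mouse 1 (0.00389), but without mouse 2 it was −1.04 with an adjusted p of 0.0524, the highest of its alternatives, which began at 3.58e-06. *Axl* and *Lgals3*, at −1.01 (edgeR adjusted p = 0.0228) and −1.48 (0.0403), were not called with some of the mice left out. *Axl* had −0.54 without mouse 1 (adjusted p = 0.288, the highest of its alternatives, with 6.23e-04 the lowest), and was not called without mouse 2, at −0.87 (0.1105), or mouse 4, at a nearly equal −1.02 (0.0609). *Lgals3* had −1.11 without mouse 1 (0.192, the highest of its alternatives, with 0.0162 the lowest, relative to the pan-myeloid list), and was not called without mouse 3, at a larger −1.65 (0.0841), or mouse 4, at −1.45 (0.112).

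The other 6 members were not called relative to the homeostatic list. *Cd9* was lower relative to that list in 5 of 5 mice, from 37.8 ± 6.87 to 27.8 ± 6.08 counts per 1000 (SD, n = 5 each), with a log2 fold change of −0.45 (95% confidence interval −0.85 to −0.05, edgeR adjusted p = 0.0625). It was called lower without mouse 5, at −0.50 (0.0444), and *Lpl* without mouse 3, at −1.05 (0.0168), and over the alternatives the adjusted p ran from 0.00541 (relative to the pan-myeloid list) to 0.1625 for *Cd9* and from 0.0168 to 0.525 for *Lpl*. The log2 fold changes of *Lpl*, *Cst7*, *Clec7a*, *Gpnmb* and *Itgax* were −0.66, −1.02, −0.39, −0.16 and 0.00, at adjusted p-values 0.0931, 0.228, 0.346, 0.837 and 0.996. Without mouse 3 *Clec7a* had −0.15 and without mouse 2 *Lpl* had −0.35, while *Gpnmb* and *Itgax* ran from −0.49 to 0.76 and from −0.34 to 0.32 with each mouse left out. Since this scaling moves genes in general downward, the change of sign of *Cd9* says nothing particular to *Cd9*.

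**Figure D3:**
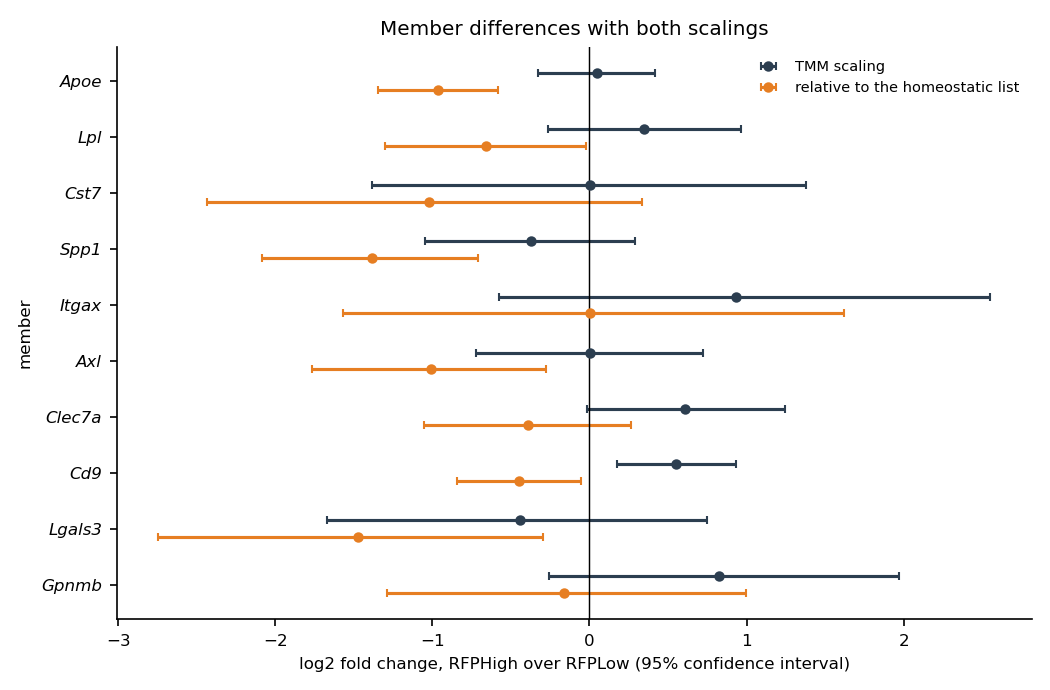
Log2 fold changes of the 10 members (RFPHigh over RFPLow) with 95% confidence intervals, by TMM scaling (dark) and relative to the homeostatic list (orange). The intervals do not use a gene's own spread between mice. With TMM scaling only the interval of *Cd9*, 0.17 to 0.93, lies wholly above 0, and relative to the list the intervals of *Apoe*, *Lpl*, *Spp1*, *Axl*, *Cd9* and *Lgals3* lie below 0 before adjustment.

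**Figure D4:**
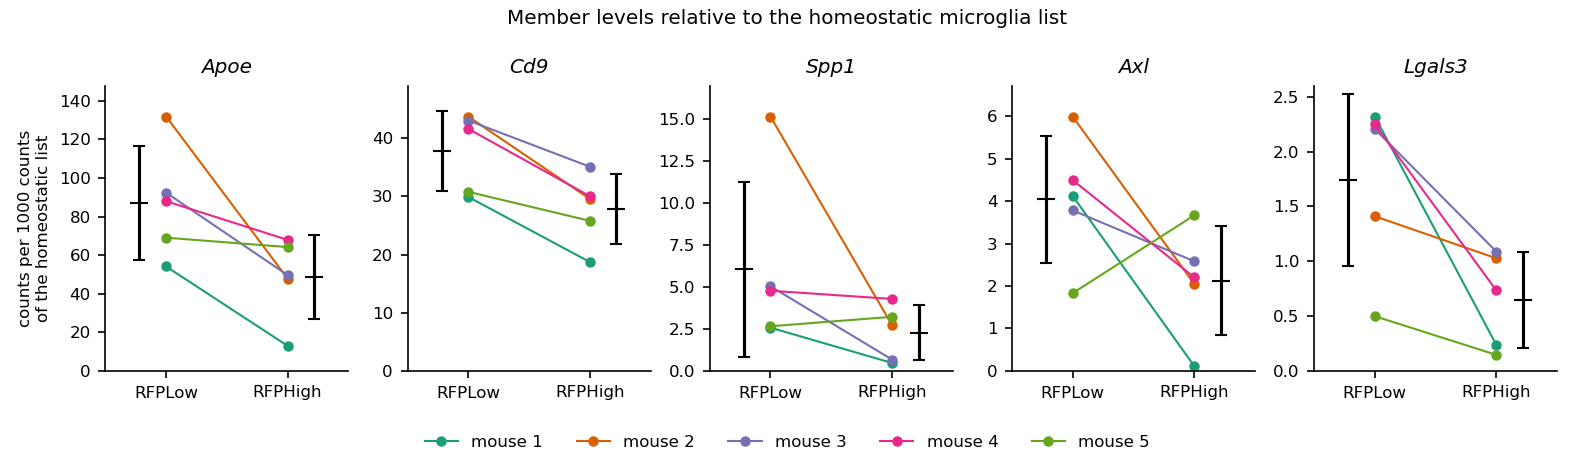
Counts of 5 members per 1000 counts of the homeostatic list in each sample (linear axes from 0), joined by mouse, with mean and SD of 5 samples in black. *Apoe*, *Cd9* and *Lgals3* were lower in RFPHigh in 5 of 5 mice and *Spp1* and *Axl* in all but mouse 5.

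Other genes known from the same state moved in both directions. Of 8 further genes of its early step, 3 were higher and 1 lower, with a median log2 fold change of 0.26 by TMM scaling and −0.74 relative to the homeostatic list. The protease *Ctsb* had 1.122 (edgeR adjusted p = 2.59e-07) and the adaptor *Tyrobp* 0.71 (0.00434), *B2m* of class I antigen presentation had 0.25 (0.490), and the lysozyme gene *Lyz2* and the ferritin gene *Fth1* had −0.67 (0.00975) and −0.54 (0.0508). Of 20 further genes of the late step, 19 were found and tested, with 8 higher and 2 lower and medians of 0.35 and −0.65, beside 4.27% of all genes higher and 7.49% lower. The lysosomal genes *Ctsz*, *Ctsl* and *Cd63* had 1.90 (1.16e-12), 1.11 (6.02e-07) and 0.62 (0.0124), and the protease inhibitor *Serpine2* had 0.79 (0.00130). *Cd52* and the lipid carrier *Fabp5* were lower, at −0.72 (0.0129) and −2.33 (0.0155). Relative to the homeostatic list, 5 of the early genes were below, and of the late genes 1 was above and 7 below, beside 0.196% and 38.4% of all genes. The gene above was *Ctsz*, at 0.91 (0.00290).

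Of 10 transcription factors known to act on these genes, 8 were tested, with 2 higher and 1 lower by TMM scaling and 1 lower relative to the homeostatic list. *Spi1*, which encodes PU.1, had a log2 fold change of 0.94 (edgeR adjusted p = 0.00213), and *Tfe3* had 1.097 (0.00234). *Bhlhe40* was lower at −2.16 (7.61e-05), on 109 counts in RFPLow and 21 in RFPHigh, while its relative *Bhlhe41* had 0.52 (0.162). Relative to the homeostatic list *Spi1*, *Tfe3* and *Bhlhe41* had −0.07, 0.11 and −0.48, none of them called.

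The cells that accompany microglia differed between the populations, and most of their marker lists were lower in RFPHigh. Of 16 lists, 11 took a smaller share of counts in RFPHigh in 5 of 5 mice, and the list of 8 microglia markers, all of which are in the homeostatic list, took a larger one in 5 of 5, from 0.748% ± 0.185 to 1.52% ± 0.163 (SD, n = 5 each, most abundant gene *Cx3cr1*). For each of these 12 lists the exact permutation test within mice gave p = 0.0625 (two-sided), the smallest that 5 pairs allow, and 0.0833 after adjustment over the 16 lists, so that none could pass 0.05. Endothelial markers went from 0.486% ± 0.202 to 0.0212% ± 0.0103 (*Flt1*), oligodendrocyte markers as given above, neutrophil markers from 0.381% ± 0.204 to 0.00692% ± 0.00813 (*S100a8*) and choroid plexus and ependymal markers from 0.234% ± 0.174 to 0.0597% ± 0.0576 (*Ttr*) (SD, n = 5 each). The choroid plexus and ependymal difference was −0.174 percentage points, and −0.0995 without mouse 1, whose RFPLow sample had 0.508%. Dendritic cell markers, led by *H2-Aa*, went from 0.0764% ± 0.0141 to 0.00923% ± 0.00713. Most of these counts were on *H2-Aa* (789 in RFPLow and 89 in RFPHigh) and *Cd74* (218 and 23). *Cd209a*, *Flt3*, *Xcr1* and *Clec9a* had 21, 6, 2 and 2 counts in RFPLow and 4, 0, 1 and 0 in RFPHigh. The paper used *H2-Aa* as a monocyte marker, so this share does not stand for dendritic cells alone. Dendritic cells also carry *Itgax*, which had 16 counts in RFPLow and 25 in RFPHigh, and their part in its level was not tested.

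The remaining lists lower in 5 of 5 mice were small. Mural cell markers (*Vtn*) took 0.0432% ± 0.0127 and 0.00662% ± 0.00359 of counts in RFPLow and RFPHigh, monocyte markers (*Ccr2*) 0.0210% ± 0.00529 and 0.000997% ± 0.000752, and neuron markers (*Stmn2*) 0.0210% ± 0.00399 and 0.00669% ± 0.00345 (SD, n = 5 each). Of the 5 neuron genes 2 were called lower and 0 had a log2 fold change above 0. *Stmn2*, at 44.2 CPM over all samples, had −3.63 (edgeR adjusted p = 3.26e-09). *Map1b*, at 46.6 CPM, had −0.38 (0.708) and was higher in RFPHigh in 2 of 5 mice. Fibroblast markers (*Dcn*) took 0.0161% ± 0.00630 and 0.00533% ± 0.00577, and oligodendrocyte progenitor markers (*Vcan*) 0.00955% ± 0.00420 and 0.00117% ± 0.00103, with *Pdgfra*, *Cspg4* and *Gpr17* at 0 in RFPHigh and at 19, 17 and 23 counts over the RFPLow samples. All 5 T and NK cell markers were at 0 in RFPHigh, against 0.00583% ± 0.00295 in RFPLow (*Nkg7*, 39 counts).

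The other 4 lists did not move one way in all mice. Astrocyte markers (*Slc1a2*) took 0.492% ± 0.0902 in RFPLow and 0.449% ± 0.223 in RFPHigh (SD, n = 5 each, exact permutation p = 0.750), higher in RFPHigh in 3 of 5 mice, and the mean difference turned positive without mouse 1 or mouse 2 (0.0238 and 0.0121 percentage points). Of its 10 genes, edgeR called 4 lower, *Slc1a2*, *Gja1*, *Ntsr2* and *Fgfr3*, with a list median of −0.40. *Slc1a2* was lower in 5 of 5 mice (log2 fold change −0.69, adjusted p = 0.00572). Without mouse 1, *Fgfr3* alone of the list was called lower and *Slc1a3* was called higher (0.60, adjusted p = 0.0431, in a range of 1.23e-04 to 0.957 over its alternatives, and called lower relative to the homeostatic list), with *Slc1a2* at −0.52 (0.0984). Without mouse 2, *Fgfr3* alone was called lower, with *Slc1a2* at −0.49 (0.192, the highest of its alternatives, with 3.94e-18 the lowest, relative to the pan-myeloid list), and without the mouse block it was again *Fgfr3* alone (*Slc1a2* −0.58). CNS-associated macrophage markers (*Mrc1*) took 0.0190% ± 0.00176 and 0.0192% ± 0.00683 (exact permutation p = 1.00), lower in RFPHigh in 4 of 5 mice. Without mouse 2, whose RFPHigh sample had 0.0311%, the mean difference was −0.00296 percentage points. Of the 7 macrophage genes 0 were called, and 3 had a log2 fold change above 0. *Mrc1* and *Cd163* had 0.65 and 1.49, each higher in RFPHigh in 4 of 5 mice (edgeR adjusted p = 0.286 and 0.347). *F13a1* and *Ms4a7* had −1.46 and −0.93, each higher in 0 of 5 mice (0.0793 and 0.438). B cell markers (*Ms4a1*) took 0.00173% ± 0.00129 and 7.40e-04% ± 5.26e-04, lower in RFPHigh in 4 of 5 mice (exact permutation p = 0.188), and the mean difference of −9.87e-04 percentage points was −3.59e-04 without mouse 1. Glial restricted progenitor markers (*Fabp7*) took 0.0629% ± 0.0313 and 0.117% ± 0.0627, higher in RFPHigh in 4 of 5 mice, all but mouse 1 (exact permutation p = 0.125). Of its 3 genes, *Npy* and *Frzb* were called higher by TMM scaling, at 1.58 (edgeR adjusted p = 1.21e-09, 5 of 5 mice) and 1.42 (1.37e-06, 4 of 5 mice), while *Fabp7* had 0.23 (0.629, 2 of 5 mice). Relative to the homeostatic list *Npy* and *Frzb* had 0.58 (0.0520) and 0.40 (0.238), and were called higher without mouse 1, at 0.67 (0.0296) and 0.70 (0.0433), the lowest of their alternatives, which reached 0.318 and 0.813. The part of these cells in the levels of the members was not tested.

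**Figure D5:**
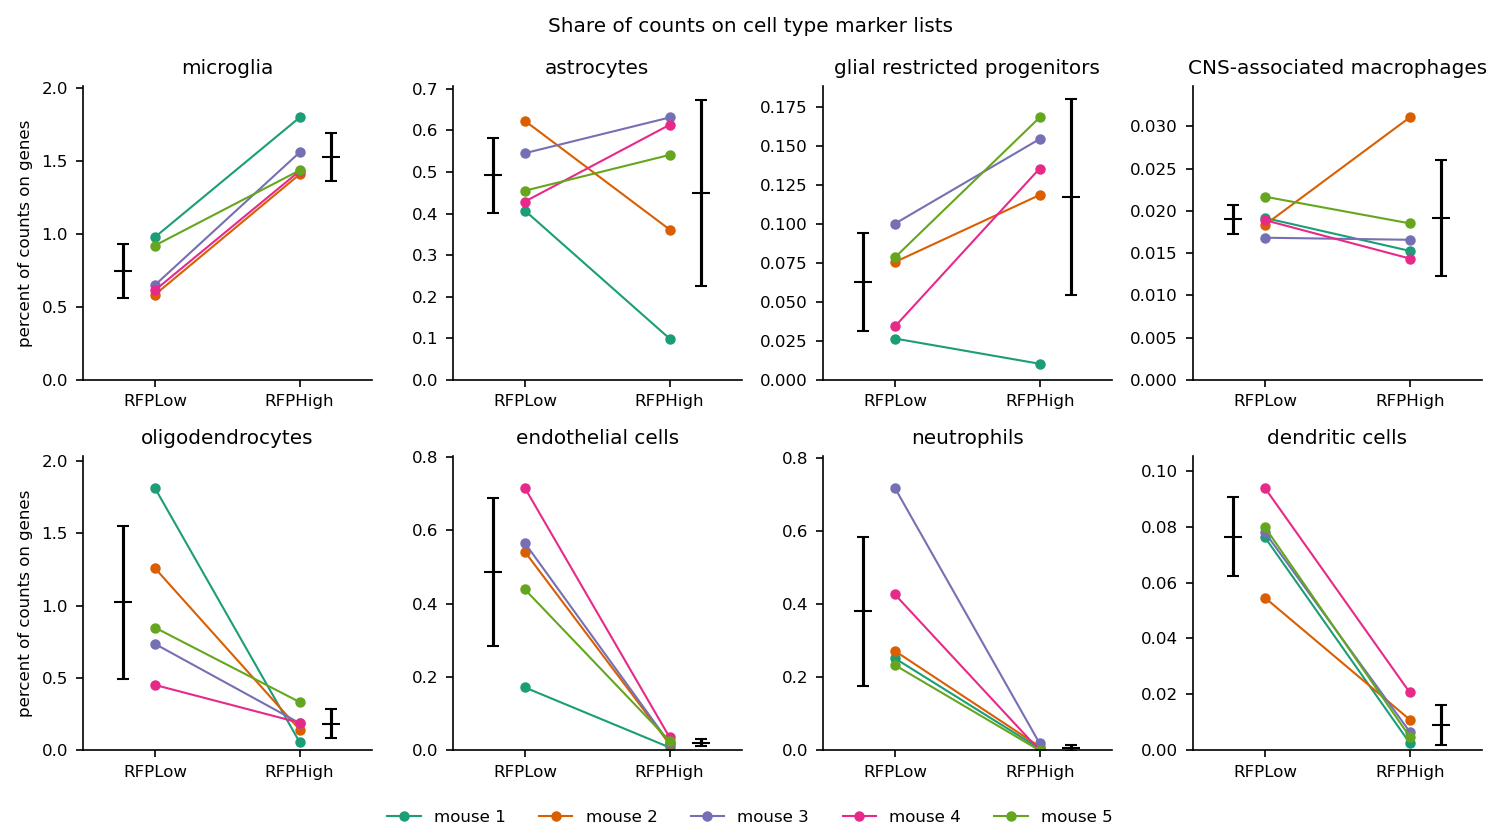
Percent of counts on genes taken by 8 of the marker lists in the RFPLow and RFPHigh sample of each mouse (linear axes from 0), with mean and SD of 5 samples in black. Astrocyte and glial restricted progenitor markers were lowest in the RFPHigh sample of mouse 1, at 0.0993% and 0.0103%.

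The profiles of the members across mice were then set beside those of 3509 genes with a mean of at least 50 CPM, by the distance between the log2 CPM differences (RFPHigh over RFPLow) of the 5 mice. For *Apoe* the differences were −1.07, −0.25, 0.19, 0.77 and 0.49 in mice 1 to 5, and the 3 nearest genes were *Hmgcs1* (distance 0.401), *Prpf19* (0.508) and *Ccdc88a* (0.559). For *Axl* they were −2.91, −0.30, 0.48, 0.10 and 1.41, and the nearest were *Apod*, *Slc4a4* and *S100b* (0.804, 0.811 and 0.816), of which *Slc4a4* is on the astrocyte list. Both members shared a low value in mouse 1. For *Cd9*, with differences between 0.30 and 0.78, the nearest were *Derl1*, *Foxo3* and *Chsy1* (0.312, 0.344 and 0.350), and for *Clec7a* they were *Clta*, *Rad23b* and *Cd164* (0.389, 0.443 and 0.469). *Lpl* and *Spp1* had no gene as near: the nearest were *Gpatch8*, *Efcab14* and *Keap1* (1.00, 1.08 and 1.1003) for *Lpl* and *Uty*, *Ankrd10* and *Pbx3* (0.940, 0.960 and 0.986) for *Spp1*, whose differences were negative in mice 1, 2 and 3 and positive in mice 4 and 5. No gene was among the 3 nearest of more than 1 of these 6 members, and the 5 differences of *Apoe*, *Spp1* and *Cd9* had unlike orders over the mice. Likeness over 5 values is a description and says nothing of shared control.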

How the data were processed

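The authors prepared 3′ libraries from the sorted cells with the Lexogen QuantSeq FWD kit, ran a Lexogen pipeline that uses unique molecular identifiers (UMIs) and deposited counts of reads per gene, not normalized. Whether reads with the same UMI were merged could not be told, so counts, count limits and counting intervals may concern copies and not molecules. The genome build and annotation of these counts are not given in the sources used here. Rows that name no gene (reads on no gene, and 0.295% to 0.436% ambiguous reads per sample) were left out of library sizes. Symbols were matched for 47224 of 47643 identifiers, and gene coordinates taken, from GENCODE on GRCm38, and promoters from RefSeq on GRCm38.p6. These counts do not tell reads of overlapping genes apart.

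From the counts, genes with at least 10 counts in total were tested with edgeR 4.0.16 in R 4.3.3 (TMM, glmQLFit and glmQLFTest, mouse as a block). The prior degrees of freedom came out infinite, so each gene was given the spread of genes at its level and not its own spread between mice. Confidence intervals (95%) were obtained by inverting this test. A second fit used the summed homeostatic counts as library size. The alternatives were limma 3.58.1 with voom, DESeq2 1.42.0, the likelihood ratio test, other scalings and filters, thinned counts, no block and each mouse left out. Single glial markers and the members above 0 were compared over these after the data were seen. Log2 CPM used a prior count of 2. On simulated counts of 11868 genes with the means and library sizes of these samples, but with a dispersion of 0.05 and a log2 SD between mice of 0.1 that were set and not estimated, 48 of 50 genes with a log2 change of −2, 18 of 50 with −1, 27 of 50 with 1 and 50 of 50 with 2 were called, and 7 of 11668 unchanged genes.

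The pairing comes from the methods, since both populations were sorted from the same mice. The deviations from the group means correlated within mice at 0.11, −0.0024, 0.052, 0.0063 and 0.0082. The members and lists were chosen with earlier results of these data known. The genes named are the members, of every other list of pathway genes the 4 with the highest mean CPM and the called genes with the largest and smallest log2 fold change, of a marker list the most abundant, and the 3 nearest in profile to each member with at least 100 counts, from genes of at least 50 CPM. Not every gene that this rule selects is printed. The markers beyond the most abundant and the markers at 0 named beside a list were chosen after their values were seen. Marker shares were compared by exact permutation within mice (32 assignments). Amino acid sequences and the single-cell data were not analysed here.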

Additional observations from a re-analysis of the deposited data

Results flagged for a closer look

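In 52 sets of 5 samples of one population, the values examined were the members' CPM and the shares of the 16 marker lists. A sample was singled out where its gap to the next sample was large against the whole range, and 6 were found. For normally distributed values chance gives this in about 1 of 20 groups, or 2.6 of these sets. The CPM and shares, some on few counts, need not be so distributed, so 6 against 2.6 is not read as an excess.

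Of the members, the RFPLow sample of mouse 2 had 205 CPM of *Spp1*, against 50.8 to 76.5 in the other RFPLow samples, and 90.6 CPM of *Gpnmb*, against 5.54 to 16.2. The RFPHigh sample of mouse 4 had 74.3 CPM of *Gpnmb*, against 25.2 to 32.1. Of the marker lists, CNS-associated macrophage markers took 0.0311% of counts in the RFPHigh sample of mouse 2 (others 0.0144% to 0.0185%), B cell markers 0.00395% in the RFPLow sample of mouse 1 (others 7.21e-04% to 0.00161%) and choroid plexus and ependymal markers 0.161% in the RFPHigh sample of mouse 4 (others 0.0166% to 0.0435%).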

How the results depend on the processing

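One setting was changed at a time, although DESeq2 has its own scaling, dispersion and test, and filters, thinned counts and mice left out also change which genes are tested and enter the scaling. *Cd9* was higher in RFPHigh with TMM (log2 fold change 0.55, adjusted p = 0.0398) and in 15 of 17 alternatives, and called higher in 4, voom, no mouse block, without mouse 1 and without mouse 5 (adjusted p over all 17, 0.00202 to 0.249). Relative to the pan-myeloid list it was called lower (0.00541). *Apoe* was below the homeostatic list, with an adjusted p under 0.05, in 7 of 7 alternatives, *Spp1* in 6, *Axl* in 3 and *Lgals3* in 3, and all 4 were below the pan-myeloid list. Over all genes tested the median log2 fold change was −1.12 relative to the homeostatic list and −1.31 relative to the pan-myeloid list. Nothing particular to these members is therefore read from the calls. Where a value below differs, the cause was not tested.

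DESeq2 called 280 genes higher and 582 lower, and 343 genes were higher where a log2 fold change above 1 was also required. filterByExpr, with 4210 genes tested, left 489 lower. Scaling to the homeostatic list gave 24 and 4712, and scaling to the pan-myeloid list 12 and 5899. The number of members called higher was 0 with DESeq2, with all genes with at least 1 count, with thinned counts, with the likelihood ratio test, with filterByExpr, with the library size alone, with median-of-ratios factors, with either list scaling and beyond a log2 fold change of 1. It ran from 0 to 1 with each mouse left out. Scaling to the lists called 4 and 6 members lower. Without the mouse block 2 members were below the homeostatic list, *Axl* (adjusted p = 0.0904) and *Lgals3* (0.0554) being lost, and with each mouse left out 2 to 5 were.

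These log2 fold changes reversed. *Apoe*: −0.00969 with DESeq2, −0.036 with filterByExpr, −0.030 with the library size alone and −0.00691 with median-of-ratios factors. *Cst7*: −0.042 with DESeq2, −0.00455 with all genes, −0.56 thinned, −0.066 with the library size alone, −0.016 with voom and −0.063 with median-of-ratios factors. *Axl*: −0.16 with DESeq2, −0.00480 with all genes, −0.027 thinned, −0.077 with filterByExpr, −0.066 with the library size alone and −0.051 with median-of-ratios factors. Thinned counts also gave −0.058 for *Lpl* and 0.10 for *Lgals3*.

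Scaling to the homeostatic list gave −0.96 for *Apoe*, −0.66 *Lpl*, −1.02 *Cst7*, −1.01 *Axl*, −0.39 *Clec7a*, −0.45 *Cd9* and −0.16 *Gpnmb*. The pan-myeloid list gave −1.16 for *Apoe*, −0.86 *Lpl*, −1.22 *Cst7*, −0.18 *Itgax* (also against its value relative to the homeostatic list), −1.20 *Axl*, −0.59 *Clec7a*, −0.65 *Cd9* and −0.35 *Gpnmb*. *Itgax* relative to the homeostatic list was −0.13 without the mouse block.

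With each mouse left out the ranges were −0.13 to 0.30 for *Apoe*, −0.039 to 0.64 for *Lpl*, −0.15 to 0.10 for *Cst7* and −0.40 to 0.46 for *Axl*. Relative to the homeostatic list they were −0.34 to 0.32 for *Itgax* and −0.49 to 0.76 for *Gpnmb*. The difference in share ran from −0.0994 to 0.0238 percentage points for astrocyte markers and −0.00296 to 0.00135 for CNS-associated macrophage markers. Leaving mice out of the marker shares was chosen after the data were seen.

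Depth limits *Cst7*, *Itgax*, *Lgals3* and *Gpnmb*, with 41 to 78 counts each. They do not pass filterByExpr and have no value there.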
